A study of Mus musculus with 768 samples.

Results

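The genes described here are 10 of the G1 phase of the cell cycle: the inhibitors of cyclin-dependent kinases (CDKs) Cdkn1a, Cdkn1b, Cdkn1c, Cdkn2c and Cdkn2d, the D cyclins Ccnd1, Ccnd2 and Ccnd3, the kinase Cdk4 and the retinoblastoma gene Rb1. They were chosen by name and not by a cut on their measured levels, but with earlier results of these data known. They are 10 of 25700 genes counted. All 10 passed the filter on low counts. RNA of single Schwann cells (SCs), the glia of peripheral nerve, was read with Smart-Seq2, a full-length single-cell RNA protocol. The cells came from sciatic nerves of mice at postnatal day 5, on the C57bl/6J background, and were distributed as single cells over 2 plates of 384 wells. All mice carried a Cre recombinase transgene active in the SC lineage, together with an eYFP reporter that Cre switches on and with DsRed under a beta actin promoter active in all cells, and eYFP-positive cells were sorted. Each plate held pooled cells of male and female pups in equal parts, from other animals than the second plate, and is 1 biological replicate, so every test below has n = 2 plates and cells of 1 plate are not replicates.

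Progression out of G1 is driven by D cyclins, which bind and activate CDK4 and CDK6. The active kinases phosphorylate the retinoblastoma protein, which then releases E2F transcription factors, and these switch on the genes of DNA synthesis. Proteins of the Cip/Kip family (p21, p27 and p57, encoded by Cdkn1a, Cdkn1b and Cdkn1c) bind complexes of cyclins with CDKs, above all those of CDK2, while those of the INK4 family (p18 and p19, encoded by Cdkn2c and Cdkn2d) bind CDK4 and CDK6 alone. Around birth, SCs divide as immature cells, leave the cell cycle when they take up a single axon, and then form myelin.

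To follow the genes along this path, cells were placed in 4 states by 12 other genes, none of which was tested. A cell was called cycling when at least 3 of 10 genes of cell division had 5 or more reads. Other cells were called immature below 10 CPM (reads of a gene scaled to a fixed total per cell) of Ncmap, a gene of myelinating SCs, intermediate with more Ncmap and below 30000 CPM of Pmp22, a protein of compact myelin, and myelinating above that. Of 768 wells, 655 outside the plate corners passed the minimum of 1500 detected genes and were used as cells. Plate 1 had 32 cycling, 106 immature, 79 intermediate and 108 myelinating cells, and plate 2 had 25, 122, 70 and 113. No 2 wells held identical counts. The 8 sums of reads per plate and state ranged from 13925435 to 98479212 reads. Myelinating cells were read more deeply, with medians of 819462 and 719230 reads per cell in plates 1 and 2, against 418998 to 598527 in the other states.

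The labels of the states were checked against marker lists. All 6 further genes of the proliferating list were highest in cycling cells and all 6 of the myelinating list in myelinating cells. A cell met a list with 5 or more reads of each of 3 or more of its genes. The proliferating list was met by 40 of 57 cycling cells and 0 others. The myelinating list was met by all myelinating and intermediate cells, but also by 184 of 228 immature and 41 of 57 cycling cells. The immature list was met by 45 of 228 immature and 19 of 57 cycling cells. The pro-myelinating list was met by 152 of 221 myelinating, 95 of 149 intermediate, 47 of 228 immature and 13 of 57 cycling cells. Intermediate cells are less well marked, since 2 of 3 genes of that list, Pou3f1 and Egr2, were highest there on the mean of the plates and neither was in both plates. The third gene, Ndrg1, was highest in myelinating cells. Immature cells are less well marked too, since on the mean of the plates 5 of the 6 genes of the immature list were highest in cycling cells and 1 in immature cells. The list common to all SCs was met by 640 of the 655 cells. Lists of endothelial, immune, pericyte or vascular smooth muscle, neuronal and skeletal muscle cells were met by 0 of 655 cells. This allows a share of up to 0.458% of cells each only if every such cell would meet its list. The proliferating and immature lists were missed by part of the cells of their own state, so the share may be higher. A fibroblast-like list was met by 22 cells. Its summed level was 2415 to 3512 CPM in cycling, 2247 to 2517 in immature, 883 to 1139 in intermediate and 283 to 303 CPM in myelinating cells, nearly all of it from the collagen genes Col1a1 and Col3a1, while Pdgfra, a marker of the fibroblast-like cells of nerve, stayed under 1 CPM in all 8 sums. Without those 22 wells, an alternative added after seeing the data, each member kept its call or its lack of one in all 4 comparisons.

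The stretches upstream of 3 of the genes are shown because Cdkn1a and Cdkn1b were higher together in Ncmap-positive cells, while Cdk4 was present in nearly all cells. Of the 10 genes, 6 had an entry in the RefSeq promoter table (GRCm38.p6). Each sequence is the 250 bases before a RefSeq transcript start, 5′ to 3′ on the strand of the gene. Capitals mark matches on either strand to the GC box (GGGCGG), the E-box (CACGTG) and CCAAT. The windows lie at chr17:29090729-29090978 on the plus strand for Cdkn1a, at chr6:134920151-134920400 on the plus strand for Cdkn1b and at chr10:127063285-127063534 on the plus strand for Cdk4.
Cdkn1a: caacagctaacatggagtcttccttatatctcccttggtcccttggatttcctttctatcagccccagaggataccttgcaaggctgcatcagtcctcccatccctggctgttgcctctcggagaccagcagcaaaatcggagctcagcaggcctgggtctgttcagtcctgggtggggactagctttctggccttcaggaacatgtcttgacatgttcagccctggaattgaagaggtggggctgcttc
Cdkn1b: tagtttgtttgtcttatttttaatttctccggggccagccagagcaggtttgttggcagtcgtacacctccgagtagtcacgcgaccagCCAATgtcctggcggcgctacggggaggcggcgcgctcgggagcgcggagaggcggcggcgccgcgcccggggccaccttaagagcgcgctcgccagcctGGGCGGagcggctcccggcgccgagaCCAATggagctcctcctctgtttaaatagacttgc
Cdk4: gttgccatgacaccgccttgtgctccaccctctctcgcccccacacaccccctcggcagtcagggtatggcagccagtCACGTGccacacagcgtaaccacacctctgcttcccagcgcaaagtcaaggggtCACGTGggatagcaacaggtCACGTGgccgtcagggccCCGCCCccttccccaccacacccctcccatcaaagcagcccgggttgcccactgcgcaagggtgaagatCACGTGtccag

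The Cdkn1a window held none of the 7 motifs searched, and the Cdkn1b window held 1 GC box and 2 CCAAT. Besides the marked motifs and E2F, the motifs searched were TTTGAA, TGACGTCA and TGTTTAC. A p53 motif was not among them, so the counts say nothing about p53 sites in these windows. The window at a second RefSeq start of Cdkn1a, further downstream, had 2 GC boxes. In the Cdk4 window were 4 E-boxes and 1 GC box. At least 1 GC box stood in 32.7% of 32851 windows of the same length, CCAAT in 33.8% and an E-box in 6.02%, and 4 or more E-boxes in 7 of the 32851. The windows of Cdkn2c, at its first start, and of Cdkn2d each held 3 GC boxes and overlap annotated first exons. None of the windows of the 6 genes held the E2F motif, searched as TTTCCCGC, TTTCGCGC, TTTGCCGC and TTTGGCGC, which 1.86% of all windows had. A match of letters is a description and not a binding site.

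Levels are first given in CPM of the summed reads, and changes between states are log2 ratios of the edgeR quasi-likelihood fit with their standard errors (SE). Calls are at a Benjamini-Hochberg adjusted p under 0.05 over 13892 genes. The 4 comparisons are not independent, since 3 of them share the immature sums and 2 each the intermediate and the myelinating sums.

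**Figure D1:**
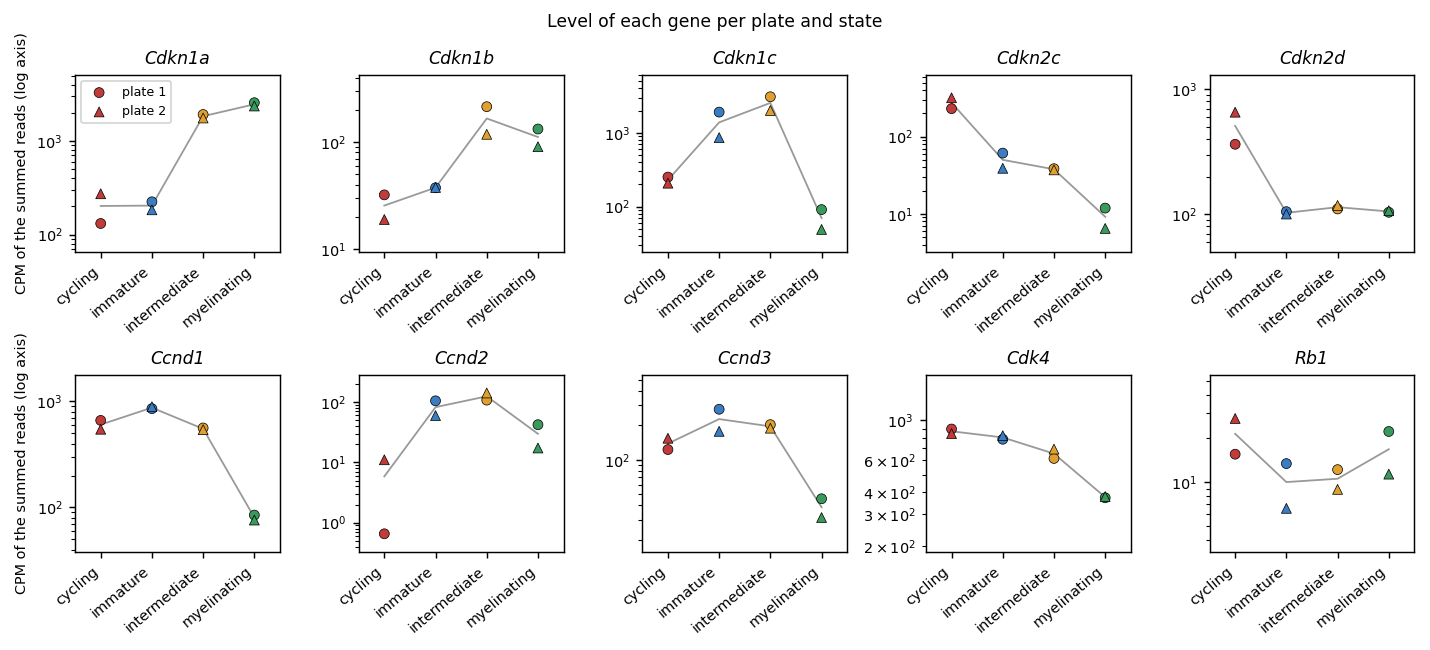
Level of each of the 10 genes in CPM of the summed reads (log axis, scaled per gene) in the 4 states, with a circle for plate 1, a triangle for plate 2 and a line through the means. Cdkn1a steps up from immature to intermediate cells, Cdkn1c, Ccnd1 and Ccnd3 drop in myelinating cells, and Cdkn2c and Cdkn2d are highest in cycling cells.

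Cdkn1a, which encodes p21, a p53-inducible inhibitor of cyclin-CDK complexes, lies at chr17:29090976-29100727 (ENSMUSG00000023067, plus strand, GRCm38). It stood at 224 and 184 CPM in immature cells of plates 1 and 2, at 1917 and 1761 CPM in intermediate cells and at 2564 and 2364 CPM in myelinating cells. In cycling cells it was at 131 and 273 CPM, so that the 2 plates lay on either side of the immature level. The intermediate and myelinating sums lay far above the cycling and immature ones in each plate, with no overlap. From immature to intermediate cells Cdkn1a rose by 3.31 ± 0.318 on the log2 scale (SE, edgeR adjusted p = 0.0013), about 9.94-fold. With Cdkn1b it was 1 of 2 members called in this comparison, against 1.95% of all genes called in either direction, 0.965% called higher and 0.986% lower. Myelinating exceeded immature cells by 3.98 ± 0.328 (edgeR adjusted p = 2.2e-04). The further step from intermediate to myelinating cells was 0.67 ± 0.292 (edgeR adjusted p = 0.533). It passed only in the fits without the cycling sums, where the adjusted p was 0.042 and 0.0279 and which are 2 of 16 alternatives with a range of 0.0279 to 0.763.

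Cdkn1b encodes p27, the inhibitor whose degradation through SKP2 and CKS1 allows entry into S phase, and lies at chr6:134920401-134925513 (ENSMUSG00000003031, plus strand). Immature cells held 37.3 and 37.6 CPM, intermediate cells 214 and 118 CPM and myelinating cells 132 and 90.4 CPM. Cycling cells were lowest, with 32.0 and 18.8 CPM. The order of states was the same in both plates, which lay furthest apart in intermediate cells. Intermediate exceeded immature cells by 2.29 ± 0.404 (edgeR adjusted p = 0.0265), and myelinating exceeded immature cells by 1.96 ± 0.399 (edgeR adjusted p = 0.0237). The differences between cycling and immature cells (-0.46 ± 0.388, edgeR adjusted p = 0.614) and between myelinating and intermediate cells (-0.34 ± 0.385, adjusted p = 0.922) did not pass.

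Cdkn1c followed another course. It encodes p57, an imprinted Cip/Kip inhibitor expressed from the maternal allele, and lies at chr7:143458339-143461050 (ENSMUSG00000037664, minus strand). Its level was 251 and 208 CPM in cycling cells, 1908 and 861 CPM in immature cells and 3078 and 2005 CPM in intermediate cells, and only 91.2 and 49.2 CPM in myelinating cells. Intermediate cells were the highest state in both plates and myelinating cells the lowest. From intermediate to myelinating cells Cdkn1c fell by 4.94 on the log2 scale (SE 0.471, edgeR adjusted p = 0.00217), about 30.6-fold. It was 1 of 3 members called lower there, together with Ccnd1 and Ccnd3, where 0.77% of all genes were called in either direction, 0.346% higher and 0.425% lower. Myelinating cells were also below immature cells, by a log2 change of -3.92 ± 0.448 (edgeR adjusted p = 0.00125).

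The difference in Cdkn1c between intermediate and immature cells, 1.02 ± 0.403, did not pass (edgeR adjusted p = 0.385). With the plate as a replicate block it did (adjusted p = 0.0479), as it did without the filter on low counts, 2 of 16 alternatives whose adjusted p ranged from 0.00502 to 0.693. In the summed reads cycling cells held less Cdkn1c than immature cells, with a log2 change of -2.49 ± 0.421 (edgeR adjusted p = 0.0206). That call was lost when cells with 2 of the division genes also counted as cycling, with -1.34 on the log2 scale and an adjusted p of 0.325. It was also lost in a fit of these 2 states alone (adjusted p = 0.0502), and 13 of 15 alternatives kept it, with adjusted p from 4.82e-10 to 0.325.

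The INK4 genes among the members, Cdkn2c and Cdkn2d, were highest in cycling cells. Cdkn2c, which encodes p18, lies at chr4:109660876-109667189 (ENSMUSG00000028551, minus strand). Cycling cells held 230 and 319 CPM of it, immature cells 61.2 and 38.9 CPM, intermediate cells 38.5 and 37.1 CPM and myelinating cells 11.9 and 6.48 CPM. The level thus went down from state to state, with immature and intermediate cells close to each other. Cycling exceeded immature cells by 2.56 ± 0.392 (edgeR adjusted p = 0.0154). Myelinating cells were below immature cells, with -2.06 ± 0.385 (edgeR adjusted p = 0.0161). Against intermediate cells the change was -1.80 ± 0.382 and did not pass (edgeR adjusted p = 0.0947). It passed in 4 of 16 alternatives, over which the adjusted p ranged from 7.4e-04 to 0.249.

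Cdkn2d encodes p19, whose level is known to vary through the cell cycle, and lies at chr9:21288410-21291407 (ENSMUSG00000096472, minus strand). It was at 362 and 654 CPM in cycling cells and stayed between 100.3 and 118 CPM in all 6 sums of the other states. Cycling exceeded immature cells by 2.42 ± 0.286 (edgeR adjusted p = 0.00489), about 5.34-fold. Cdkn2c, Cdkn2d and Cdkn1c were the 3 members called between cycling and immature cells, where 2.46% of all genes were called in either direction, 1.21% higher and 1.25% lower. Between the 3 non-cycling states no difference in Cdkn2d passed, with log2 changes from 0.13 to 0.42. Each of the other 4 inhibitors was called in at least 2 comparisons.

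**Figure D2:**
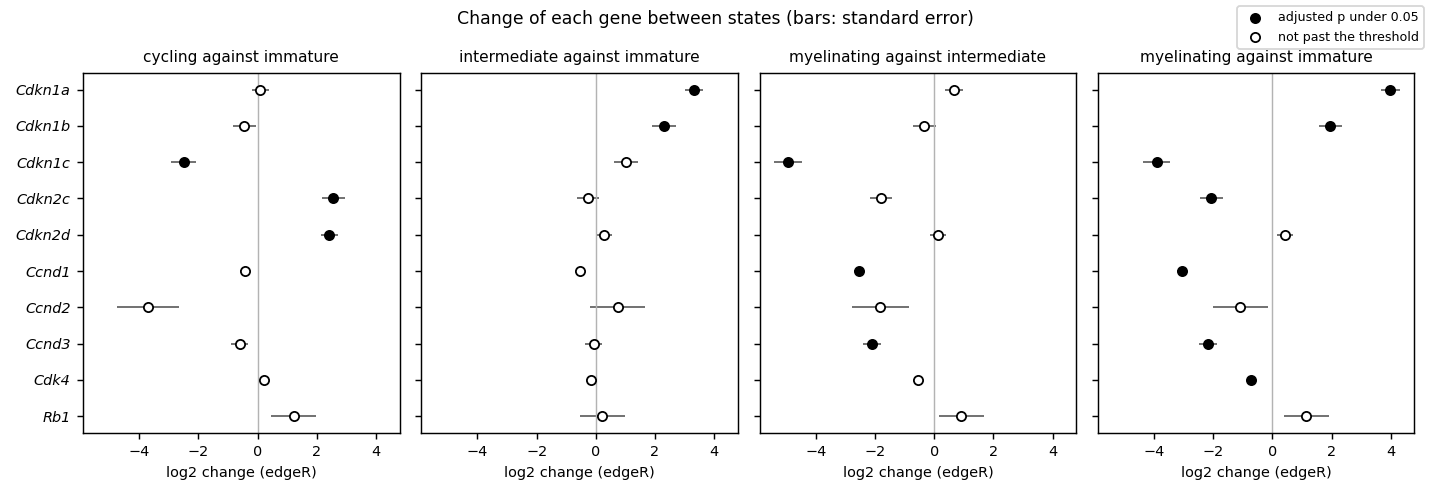
Log2 changes of the 10 genes in the 4 comparisons from the edgeR fit, with bars of 1 SE, filled where the adjusted p was under 0.05. Cdkn1a and Cdkn1b lie to the right and Cdkn1c, Ccnd1 and Ccnd3 to the left in the comparison of myelinating with immature cells, at 3.98, 1.96, -3.92, -3.06 and -2.18.

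Ccnd1, the gene of cyclin D1, is known to be needed for the division of SCs after nerve injury, and lies at chr7:144929931-144939925 (ENSMUSG00000070348, minus strand). It was at 663 and 547 CPM in cycling cells, 856 and 892 CPM in immature cells and 562 and 542 CPM in intermediate cells, and fell to 84.7 and 76.0 CPM in myelinating cells. The plates were close to each other in every state, and the myelinating sums were far below all others. From intermediate to myelinating cells Ccnd1 fell by 2.54 on the log2 scale (SE 0.163, edgeR adjusted p = 2.9e-04), about 5.80-fold. Against immature cells the log2 change was -3.06 ± 0.166 (edgeR adjusted p = 2.5e-05). Both calls held in 16 of 16 alternatives. Cycling and immature cells did not differ past the threshold, with -0.43 ± 0.154 (edgeR adjusted p = 0.225), nor did intermediate and immature cells, with -0.52 ± 0.154 (adjusted p = 0.181). The latter passed in 3 of 16 alternatives, with adjusted p from 0.025 to 0.535.

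Ccnd3, the gene of cyclin D3, lies at chr17:47505051-47599691 (ENSMUSG00000034165, plus strand). It was at 123 and 154 CPM in cycling cells, 276 and 177 CPM in immature cells, 203 and 189 CPM in intermediate cells and 45.6 and 31.3 CPM in myelinating cells. As with Ccnd1, the myelinating sums lay below all others in both plates, while the order of the first 3 states was not clear of the spread between plates. From immature to myelinating cells it fell by 2.18 on the log2 scale (SE 0.308, edgeR adjusted p = 0.00395). Against intermediate cells the change was -2.10 ± 0.307 (edgeR adjusted p = 0.0178). That call was lost when cells above 20000 CPM of Pmp22 counted as myelinating, with -1.45 on the log2 scale and an adjusted p of 0.0706, and held in the 15 other alternatives, with adjusted p from 3.33e-08.

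Ccnd2, the gene of cyclin D2 (chr6:127125162-127152193, ENSMUSG00000000184, minus strand), was carried by few cells. Cycling cells held 0.654 and 11.1 CPM, from only 13 and 154 reads, and 1 cell gave 84.4% of these. Immature cells held 105 and 59.8 CPM, intermediate cells 108 and 142 CPM and myelinating cells 42.2 and 17.3 CPM. No comparison of Ccnd2 passed in the edgeR fit, the log2 change from immature to cycling cells being -3.71 ± 1.05 (adjusted p = 0.122). DESeq2 and the fit without the filter on low counts called it, with adjusted p of 7.5e-04 and 5.1e-05 in a range of 5.1e-05 to 0.899 over 15 alternatives.

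Cdk4, the kinase that the D cyclins activate and the INK4 proteins inhibit (chr10:127063534-127067920, ENSMUSG00000006728, plus strand), was at a similar level in both plates of every state. It stood at 895 and 844 CPM in cycling cells, 785 and 822 CPM in immature cells, 614 and 692 CPM in intermediate cells and 371 and 377 CPM in myelinating cells. The order of states was the same in both plates, with cycling and immature cells close together. Myelinating cells were below immature cells by a log2 change of -0.72 ± 0.133 (edgeR adjusted p = 0.0154), the smallest change among the 7 members called in this comparison. Those 7 were Cdkn1a and Cdkn1b, higher, and Cdkn1c, Cdkn2c, Ccnd1, Ccnd3 and Cdk4, lower, where 5.1% of all genes were called in either direction, 2.58% higher and 2.51% lower. The step from intermediate to myelinating cells, -0.56 ± 0.133, did not pass (edgeR adjusted p = 0.144), although DESeq2 and scaling by total reads called it, at adjusted p of 0.00367 and 0.0332 (range over 16 alternatives 0.00367 to 0.159).

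Rb1 encodes the retinoblastoma protein, the main target of CDK4 (chr14:73183673-73325822, ENSMUSG00000022105, minus strand), and had the lowest level per kilobase of exon of all 10 genes outside cycling cells on the mean of the plates, 1.66 to 2.80 CPM per kb, although Ccnd2 was lower in myelinating cells of plate 2, at 1.84 against 1.88 CPM per kb. It was at 15.5 and 27.4 CPM in cycling cells, 13.4 and 6.57 CPM in immature cells, 12.2 and 8.89 CPM in intermediate cells and 22.3 and 11.3 CPM in myelinating cells. The plates overlapped between states and no comparison passed, with SE of 0.748 to 0.759 on the log2 scale. Differences of the size seen for Cdk4 were not detectable for Rb1 at this spread. Exons of Rb1 overlap those of Rcbtb2 and Lpar6, and those of Ccnd1, Ccnd3 and Cdk4 overlap LTO1, Bysl and Tspan31. Without strand information, reads from the shared stretches cannot be told apart.

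In the summed reads per kilobase of exon, the inhibitor with the highest level was Cdkn2d in cycling, Cdkn1c in immature and intermediate and Cdkn1a in myelinating cells, in each case in both plates. Among the 5 inhibitors, Cdkn2d led in cycling cells with 323 ± 131 CPM per kb (SD, n = 2 plates), ahead of Cdkn1c with 113 ± 15.1 and Cdkn2c with 102 ± 23.3 CPM per kb. Cdkn1c led in immature cells with 679 ± 363 CPM per kb, against 65.2 ± 1.99 for Cdkn2d and 57.4 ± 7.95 for Cdkn1a. In intermediate cells Cdkn1c reached 1247 ± 372 and Cdkn1a 518 ± 31.1 CPM per kb. The lead of Cdkn1c was that of summed reads, of which 5 cells gave 42.2% in immature and 32.5% in intermediate cells. Before scaling by exon length, the median intermediate cell held 1646 and 1659 CPM of Cdkn1a in plates 1 and 2. Of Cdkn1c it held 667 and 797 CPM, so in CPM the order was the other way in the median cell. Exons span 3553 bases in Cdkn1a and 2039 in Cdkn1c. In myelinating cells Cdkn1a was at 694 ± 39.7 CPM per kb, and the next, Cdkn2d, at 66.8 ± 1.40. Cdkn1b never led, with 36.5 ± 14.9 CPM per kb at its highest, in intermediate cells. Among the D cyclins Ccnd1 led in every state, from 186 ± 5.46 CPM per kb in immature to 17.1 ± 1.30 in myelinating cells, against 25.9 ± 7.99 and 4.38 ± 1.16 for Ccnd3. Cdk4 stood at 268 ± 11.1 CPM per kb in cycling and 115 ± 1.27 in myelinating cells.

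To see whether these levels came from all cells or from a few, 633 cells were thinned to 100000 reads each and a gene was counted as present from 5 reads on. The other 22 cells were too shallow. Cdkn1a was present in 35.9% ± 6.002 of immature cells (SD, n = 2 plates), in 96.5% ± 0.897 of intermediate cells and in all 219 myelinating cells. With all reads the shares were 37.0%, 95.4% and 100%. The lowest myelinating cell still held 429 CPM of Cdkn1a, whereas 47.2% and 44.3% of immature cells in plates 1 and 2 had no read of it and the upper quartile was at 291 and 321 CPM. Immature cells were therefore mixed for Cdkn1a, while nearly all intermediate and all myelinating cells held it.

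**Figure D3:**
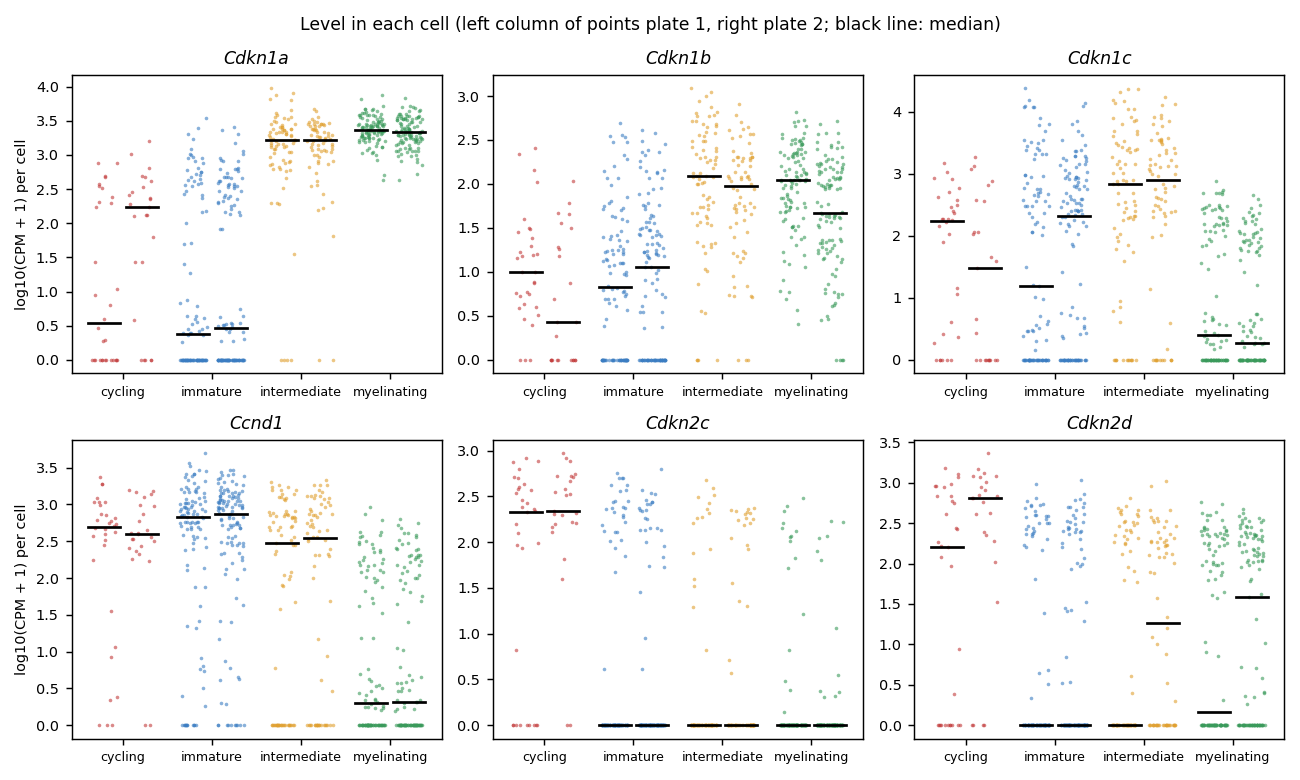
Level of 6 of the genes in each of the 655 cells as log10(CPM + 1), by state, with plate 1 on the left and plate 2 on the right of each state and a black line at the median. All myelinating cells lie at or above 429 CPM of Cdkn1a, while for the other genes each state holds cells without reads.

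Cdkn1b was present in 21.4% ± 3.62 of immature, 70.9% ± 3.89 of intermediate and 68.8% ± 14.7 of myelinating cells, and in 11.8% ± 10.7 of cycling cells. Its shares depended on depth, since all reads gave 44.5%, 83.8%, 91.03% and 47.7%. Cdkn1c was present in 53.1% ± 16.2 of cycling, 54.2% ± 8.0 of immature and 80.1% ± 0.598 of intermediate cells, and in 33.9% ± 4.11 of myelinating cells, where no cell reached 1000 CPM. Among intermediate cells 34 of 79 in plate 1 and 32 of 70 in plate 2 did, with single cells of up to 23344 and 17035 CPM. From intermediate to myelinating cells the share of cells with Cdkn1c thus changed less than its summed level. Cycling and immature cells were close in that share, and their medians of Cdkn1c differed in opposite directions. These medians were 173 and 29.7 CPM in cycling and 14.5 and 207 CPM in immature cells of plates 1 and 2. At least 1000 CPM was reached by 2 of 32 and 3 of 25 cycling cells, and by 22 of 106 and 25 of 122 immature cells.

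Cdkn2c was present in 79.7% ± 16.9 of cycling cells and in 23.3% ± 6.31 of immature, 20.6% ± 3.63 of intermediate and 7.37% ± 2.92 of myelinating cells. For Cdkn2d the shares were 70.7% ± 17.9 in cycling cells and 28.0% ± 0.963, 44.1% ± 5.34 and 47.0% ± 1.10 in the other states. Of 55 thinned cycling cells 36 held both INK4 genes, 7 Cdkn2c alone, 2 Cdkn2d alone and 10 neither, and across these cells the levels had a Spearman rho of 0.556, given as a description over cells of 2 plates that share library depth. Among 218 immature cells 19 held both and 73 held 1 of the 2.

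Ccnd1 was present in 84.5% ± 10.1 of cycling, 80.1% ± 4.02 of immature and 63.9% ± 1.92 of intermediate cells and in 31.5% ± 0.779 of myelinating cells. Ccnd3 went from 57.5% ± 6.75 of intermediate to 20.6% ± 4.16 of myelinating cells. Ccnd2 was present in 24.9% ± 5.76 of intermediate cells at most, and 32 of the 35 such cells held Ccnd1 too. None of the 3 D cyclins was present in 55.7% and 55.8% of myelinating cells in plates 1 and 2, against 5.98% to 19.4% of cells in the other states. Cdk4 by contrast was present in 92.7% to 98.4% of cells in every state. Of the myelinating cells, 67 of 219 held Ccnd1 together with Cdk4 and 136 held Cdk4 without Ccnd1.

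**Figure D4:**
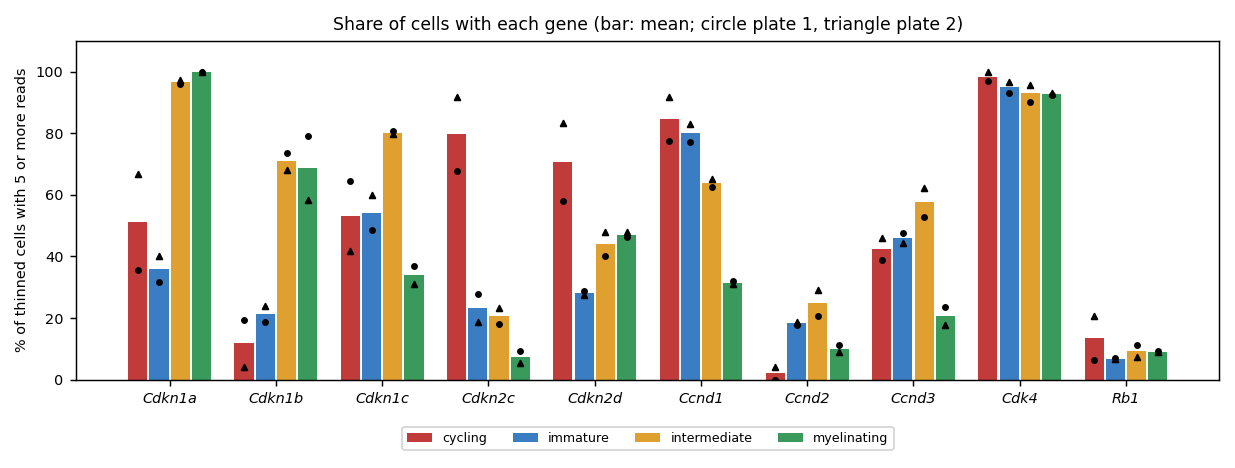
Share of cells, thinned to 100000 reads, with 5 or more reads of each gene, in the 4 states (bars: mean of the plates, circles plate 1, triangles plate 2). Cdkn1a reaches 100% of myelinating cells, while Ccnd1 goes from 84.5% of cycling to 31.5% of myelinating cells.

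Inhibitors and D cyclins were also counted together in single cells. Cdkn1a and Ccnd1 were both present in 87 of 141 thinned intermediate cells, or 61.7%, compared with 45.45% of cycling, 27.98% of immature and 31.5% of myelinating cells. Since nearly all intermediate and all myelinating cells held Cdkn1a, the shares in these states are close to those of Ccnd1 alone. Cdkn1c and Ccnd1 were both present in 75 of 141 intermediate cells, or 53.2%, in 47.3% of cycling, 42.7% of immature and 11.4% of myelinating cells. Whether pairs of genes met more often than their separate shares would give was not tested. Cdkn1a and Cdkn1c were present together in 111 of 141 intermediate cells and in 57 of 218 immature cells. A cell held on average 1.55 and 1.70 of the 5 inhibitors in immature cells of plates 1 and 2, 3.08 and 3.16 in intermediate cells, 2.72 and 2.42 in myelinating cells and 2.45 and 2.88 in cycling cells. No inhibitor was present in 18.8% and 15.4% of immature cells and in 0 of 219 myelinating cells.

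The Ncmap-positive cells outside the cell cycle were then divided by their level of Pmp22 into 4 bins, which describes the same cells as the intermediate and myelinating states. The bins held 32 to 67 cells per plate, and their median depth went up with Pmp22, from 462661 and 474476 reads to 808797 and 801821. Below 10000 CPM of Pmp22 the cells held a mean of 5582 and 3838 CPM of Cdkn1c in plates 1 and 2. Between 10000 and 30000 CPM they held 830 and 782 CPM, between 30000 and 60000 CPM 151 and 60.3 CPM, and from 60000 CPM on 45.4 and 40.2 CPM. In CPM the largest step was that between the lower bins, and the level was lower again in each later bin. Ccnd1 went from 726 and 714 CPM over 290 and 366 CPM and 114 and 116 CPM to 57.8 and 53.4 CPM, also lower in each later bin.

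Ccnd3 stayed level across the lower bins, at 168 and 192 CPM and then 184 and 183 CPM, and was lower only from 30000 CPM of Pmp22 on, with 59.8 and 34.9 CPM. Cdkn1a was at 1388 and 1319 CPM in the lowest bin, highest between 30000 and 60000 CPM of Pmp22, with 2894 and 2675 CPM, and at 2344 and 2171 CPM in the highest bin. These values are means over cells, and no test was made over the bins.

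**Figure D5:**
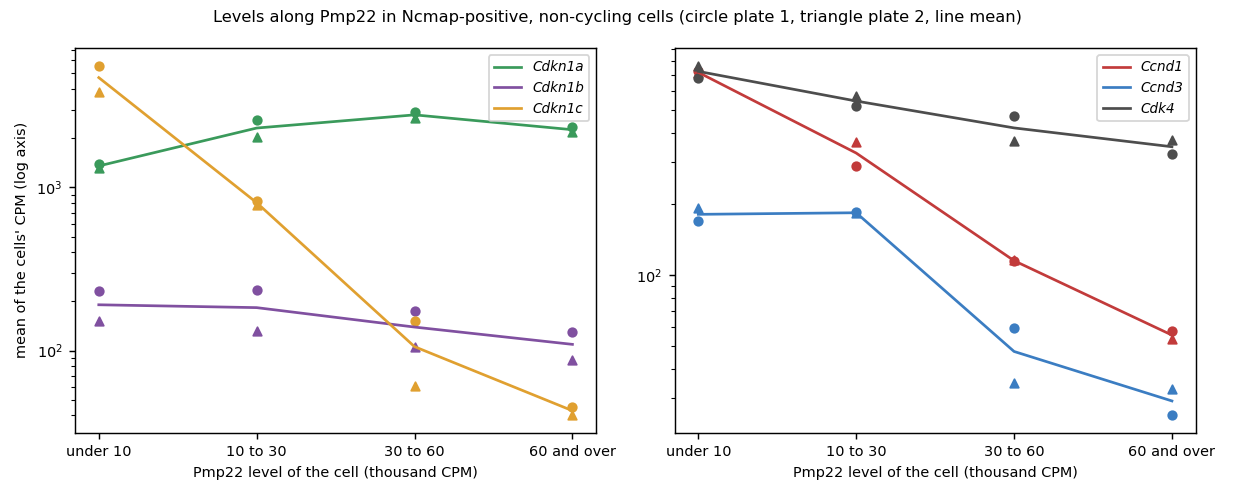
Mean of the cells' CPM (log axis) of 3 inhibitors and of Ccnd1, Ccnd3 and Cdk4 in Ncmap-positive, non-cycling cells in 4 bins of their Pmp22 level, with circles for plate 1, triangles for plate 2 and lines for the mean. Cdkn1c falls from 5582 and 3838 CPM in the lowest bin to 45.4 and 40.2 CPM in the highest, while Cdk4 goes from 684 and 769 CPM to 325 and 372 CPM.

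Other genes of the pathway were followed as lists. Of the genes of CDK6, CDK2 and their E and A cyclins, 4 of 6 were tested and 0 passed in any of the 4 edgeR comparisons, with 5 results at an unadjusted p under 0.05. DESeq2 called Ccne2 higher in cycling than in immature cells and Cdk6 lower in myelinating cells than in both intermediate and immature cells. Cdk6, the partner kinase of the D cyclins beside Cdk4, was at 503 and 631 CPM in cycling cells, 449 and 526 CPM in immature cells, 805 and 82.5 CPM in intermediate cells and 27.7 and 47.6 CPM in myelinating cells, so that the plates went apart in intermediate cells. Its log2 change from immature to myelinating cells was -3.31 ± 0.840 (edgeR adjusted p = 0.064). Cdkn2a, the senescence-associated INK4 gene, had 0 reads in all 8 sums, and Cdkn2b had reads in 2 of them, 125 and 122. Of the RB family, E2F and DREAM genes, all 19 were tested and 0 passed in any edgeR comparison. At an unadjusted p under 0.05, 8 were higher and 0 lower in cycling than in immature cells, where 2132 of all 13892 genes reached that level in either direction (1516 between intermediate and immature, 1295 between myelinating and intermediate and 2258 between myelinating and immature cells), and DESeq2 called 7 of the 19 higher. In the other 3 comparisons 0 to 5 of the 19 reached that level and DESeq2 called 0 to 3. Of all 13892 genes DESeq2 called 606 higher and 749 lower between cycling and immature cells. It called 422 and 517 between intermediate and immature, 331 and 321 between myelinating and intermediate, and 722 and 778 between myelinating and immature cells. The DESeq2 counts of the lists below stand beside these too. E2f8 had 1233 and 586 reads in cycling cells and none in immature cells, but with an edgeR adjusted p of 0.0691.

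Of 13 genes for the turnover and activation of cyclin D and p27, 2 were called higher in cycling than in immature cells and 0 lower. Of all genes, 1.21% were called higher there and 1.25% lower. The 2 of the list were Cks1b and Cks2, small CDK-binding proteins of which the first is a cofactor in p27 degradation. Cks1b rose from 53.8 and 48.9 CPM in immature cells to 580 and 984 CPM in cycling cells, a log2 change of 4.04 ± 0.308 (edgeR adjusted p = 6.9e-04). Cdkn3, a phosphatase of CDK2 listed with the inhibitors, went from 5.80 and 2.84 CPM to 144 and 137 CPM (log2 5.13 ± 0.676, edgeR adjusted p = 0.00892). Cks2 rose as well, with 5.93 ± 0.909 (adjusted p = 0.0154), a call lost in the fit of the 2 states alone (adjusted p = 0.0564, range over 15 alternatives 1.9e-17 to 0.0564). Skp2, the partner of Cks1b, was at 58.5 and 15.9 CPM in cycling cells against 2.95 and 2.14 CPM, and did not pass (edgeR adjusted p = 0.152). At an unadjusted p under 0.05, 3 of the 13 were higher and 2 lower, and DESeq2 called 3 higher, Skp2 among them, and 1 lower. In the other 3 comparisons 0 of the 13 passed with edgeR, with 1 or 2 of them at an unadjusted p under 0.05 and 0 to 2 called by DESeq2.

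Of 16 E2F target genes of DNA synthesis, 3 were called higher in cycling than in immature cells and 0 lower, beside 1.21% and 1.25% of all genes, with a median log2 change of 2.04 over the list against -0.13 over all genes tested. They were Pcna, the sliding clamp of DNA polymerase, at 623 and 506 CPM against 141 and 212 CPM, Tyms, thymidylate synthase, at 296 and 252 CPM against 34.3 and 36.6 CPM, and Tk1, thymidine kinase, whose call was lost in the fit of the 2 states alone (adjusted p = 0.062, range over 15 alternatives 5.1e-12 to 0.062). At an unadjusted p under 0.05, 6 were higher and 0 lower, and DESeq2 called 5 higher. The plates differed for the Mcm genes of the list. Their log2 ratios, with a small constant added to each level, ran from 1.37 to 2.76 in plate 1 and from 0.03 to 1.98 in plate 2. In plate 2 Mcm7 was at 107 CPM in cycling and 105 CPM in immature cells. Immature cells thus held RNA of such genes too. In intermediate cells 2 of the 16 were called lower than in immature cells and 0 higher, beside 0.986% and 0.965% of all genes, while 13 were lower and 0 higher at an unadjusted p under 0.05 and DESeq2 called 8 lower. The median log2 change of the list was -2.49, against -0.03 over all genes tested. The 2 were Tyms, with a log2 change of -2.32 ± 0.463 (edgeR adjusted p = 0.0426), and Tk1, of which 1 and 4 reads were found. With the plate as a replicate block neither passed, with adjusted p of 0.0773 for Tyms and 0.0544 for Tk1. Over 16 alternatives the adjusted p of Tyms ranged from 4.1e-05 to 0.129 and passed in 10, and that of Tk1 ranged from 2.7e-10 to 0.179 and passed in 12. With a small constant added to each level, the log2 ratio of Tk1 was -1.59 in plate 2 and -4.49 in plate 1. At levels this low the constant shrinks the ratio, so neither value can be set against the -6.74 of the fit. Myelinating cells were below immature cells in 3 of the 16 and above in 0, beside 2.51% and 2.58% of all genes. There, 11 were lower and 0 higher at an unadjusted p under 0.05, DESeq2 called 6 lower, and the median was -3.03 against -0.04. Among the 3 was Mcm7, a subunit of the replicative helicase, at 10.6 and 8.42 CPM against 100.1 and 105 CPM (log2 -3.05 ± 0.489, edgeR adjusted p = 0.00766). Rrm2, a subunit of ribonucleotide reductase, was at 0.569 and 0.0229 CPM, from 56 and 2 reads, against 1025 and 1574 reads in immature cells (log2 -5.84 ± 1.33, edgeR adjusted p = 0.0392), and passed in 14 of 16 alternatives, with adjusted p from 1.9e-08 to 0.0891. In plate 1 alone the log2 ratio of Rrm2, with that constant added, was -3.91.

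Cdkn1a is a target of p53, so p53 and its other targets were counted too. Of 12 such genes 11 were tested, and edgeR called 0 of them higher in any of the 4 comparisons. Whether p53 acts on Cdkn1a in these cells was not tested. From immature to intermediate cells 0 were higher and 2 lower at an unadjusted p under 0.05, and DESeq2 called none. From immature to myelinating cells 1 was higher and 3 were lower at that level, and DESeq2 called 1 higher, Phlda3 with a log2 change of 0.95, and 2 lower. Between cycling and immature cells 1 was higher and 2 were lower at that level, and DESeq2 called 1 higher and 1 lower. Between myelinating and intermediate cells 1 was higher and 1 lower, both also called by DESeq2. Their median log2 change was -0.41 from immature to intermediate cells and -0.35 from immature to myelinating cells, against -0.03 and -0.04 over all genes tested. Mdm2, a p53 target that limits p53, changed by 0.37 ± 0.617 from immature to intermediate cells (edgeR adjusted p = 0.947). Trp53 itself was lower in myelinating cells, at 72.9 and 66.5 CPM against 249.9 and 262 CPM in immature cells (log2 -1.49 ± 0.184, edgeR adjusted p = 0.00183), the 1 gene of the list that passed in any of these comparisons.

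The genes whose level ran most like each member over the 8 sums were named by Pearson's r among 6305 genes, as a description with no p, since the 8 sums share plates and states. Cdkn1a was most like Fxyd6 (r = 0.996), Mlip (0.992) and Il16 (0.990), and Cdkn1b like Gjc3 (0.978), Dtd1 and Mrps12. Cdkn2d ran most like Iqgap3 (0.997), Kif4 (0.996) and Kif2c (0.993), and Cdkn2c like Tmem185a (0.989), Gm43863 and Prkag1. Cdkn1c was most like Uqcrc1 (0.983), Ahnak2 and Cd63. Ccnd1 ran most like Sat1 (0.992), Mif and Ppp1r14c, Ccnd3 like Gtf3c6 (0.976), Taf6l and Nudt9, and Cdk4 like Dynlt1b (0.997), Lrwd1 and Gm20390. With r of 0.95 or more stood 119 genes for Cdk4 and 10 for Cdkn1c.

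With scaling by total reads in place of TMM (trimmed mean of M values), the median log2 change of all genes between myelinating and immature cells moved from -0.04 to -0.42, and the share of calls that were higher went from 50.7% to 26.6%. Between myelinating and intermediate cells that share went from 44.9% to 20.9%, and the median from 0.00 to -0.22. All 15 calls of members given above kept their direction and their side of the threshold under that scaling.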

How the data were processed

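The authors deposited unnormalised counts, the number of reads on each gene in every well. Per the labels, the authors used bcl2fastq, STAR 2.6.1c and featureCounts with the mouse build GRCm38.p5. The paper's methods name other versions and a human build, and the strand setting of the counting is not given in the sources used here. Reads carry no molecular identifiers and may be PCR copies, so limits cover counting error only. The members and gene lists, and the rule for the states, were chosen with earlier results of these data known.

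Symbols, coordinates and exon lengths were taken from GENCODE vM21 (GRCm38) by Ensembl identifier. Of 25700 genes 25587 matched, and the other 113 held 0.0916% of reads. Wells with at least 1500 genes were kept as in the study, without the 4 corner wells of each plate. No doublet caller was run. Counts were summed per plate and state and fitted with edgeR 4.0.16 (R 4.3.3; quasi-likelihood, TMM scaling, filterByExpr, all 8 sums in 1 fit, 4 residual degrees of freedom, common dispersion 0.713), with Benjamini-Hochberg adjustment over 13892 genes at 0.05. The 12 genes of the state rule stayed in library sizes but were left out of tests and counts. The fit was tested on simulated data. The changed genes were drawn from those with a mean of at least 20 CPM over the 8 sums, so the shares recovered do not cover lower genes such as Rb1. Over the 4 comparisons it recovered 2.99% to 7.46% of genes changed by 1 on the log2 scale. At a change of 2 it recovered 43.3% to 53.7%, and at 4 it recovered 86.4% to 97%. It called 2 to 10 unchanged genes. A difference that did not pass is thus no sign of equal levels. The study compared cells by a Wilcoxon test, whereas here the plate is the replicate.

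All 10 members are named by rule. Of a pathway list, up to 3 genes per comparison and direction are named, by the size of the log2 change, if they were called, had a mean of at least 20 CPM over the 8 sums and moved the same way in both plates. Cdk6, Ccne2, Cdkn2a, Cdkn2b, E2f8, Skp2, Mdm2 and Phlda3 were chosen for mention after their values were seen. For shares of cells, reads were drawn without replacement to 100000 per cell. Genes most like a called member were the 3 with the highest Pearson's r of log2(CPM + 1) over the 8 sums, among genes with a mean of at least 20 CPM.

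The plate numbers pair the sums, because all states of a plate share its animals. Over 1990 genes the deviations of 2 states from their means correlated weakly, the lowest r of the 6 pairs of states being -0.00951 and the highest 0.122. The alternatives were DESeq2 1.42.0, other scalings, no filter on low counts, the plate as a replicate block, fits on fewer sums, other cuts for cells and states, thinned cells, leaving out wells, and leaving out a plate. The promoter that drives Cre is not reported here.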

Additional observations from a re-analysis of the deposited data

Results flagged for a closer look

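The wells left out of the comparisons also held reads of these genes. In the 105 wells under 1500 genes outside the corners, 18691 reads fell on the 10 genes, of 7279040 in all. Cdkn1b with 5565 reads in 16 wells, Cdkn1a with 4791 in 36 wells and Cdkn1c with 4507 in 27 wells made up most of them, while Cdkn2c had 0 reads and Cdkn2d 3. The 8 corner wells held 72 reads of the 10 genes among 158513 reads, 46 of them on Cdk4 and 19 on Ccnd1. What the corner wells held is not given in the labels, and the cause was not tested. The test for a single distant sample applies to groups of 4 to 10 samples and could not be made with 2 plates.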

How the results depend on the processing

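Across the alternative fits, each with a test, the calls lost were those of Cdkn1c between cycling and immature cells and of Ccnd3 between myelinating and intermediate cells, with the values given above. All other calls of members held, and 15 times a member's difference that did not pass did so under an alternative, as given above. Apart from Cdkn1c between intermediate and immature cells, and Tyms and Tk1 there, the replicate block changed no call of a gene named. Leaving out a plate leaves values with no test. They are log2 ratios of the levels in the plate kept, with a small constant added, and not a fit. Directions that turned were all of differences that did not pass. For Cdkn1a between cycling and immature cells the log2 change of 0.10 became -0.0134 with scaling by total reads, -0.10 with thinned cells and -0.21 with the Ncmap limit at 20 CPM, and was -0.68 in plate 1 alone and 0.69 in plate 2 alone. From immature to intermediate cells it was -0.50 and 0.0458 in plates 1 and 2 alone for Cdkn2c, and -0.28 and 0.21 for Ccnd3, which was 0.0021 with the Ncmap limit at 20 CPM. For Cdkn2d between myelinating and intermediate cells it was -0.11 with total reads and -0.0792 with thinned cells. Of the calls of members, the log2 change between cycling and immature cells was 1.99 and 3.13 in plates 1 and 2 alone for Cdkn2c, against 2.56 in both.

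The number of all genes called depended more on the fit. Cycling against immature cells gave 342 genes, and 1355 with DESeq2, 838 without the filter, 137 in the fit of the 2 states alone and 171 when 2 division genes defined cycling. Intermediate against immature cells gave 271 genes, and 939 with DESeq2, 682 without the filter, 502 without the cycling sums and 468 with thinned cells. Myelinating against intermediate cells gave 107 genes, and 652 with DESeq2, 420 without the filter, 252 without the cycling sums, 246 in the fit of the 2 states alone and 209 with thinned cells. There, the members called went from 3 to 5 with DESeq2 and 5 with total reads, under which 139 genes were called, 110 of them lower. Myelinating against immature cells gave 708 genes, and 1500 with DESeq2, 1187 without the filter, 1167 without the cycling sums and 1338 in the fit of the 2 states alone. The cause was not tested.

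Cycling cells were 8.71% ± 1.61 of all cells (SD, n = 2 plates) and 11.9% when 2 division genes sufficed. Intermediate cells were 22.8% ± 2.19, and 16.96% or 28.1% with the Pmp22 limit at 20000 or 40000 CPM. Myelinating cells were 33.7% ± 0.715, and 39.5% or 28.4% with those limits and 35.9% with a minimum of 2500 genes. With 2 plates, small changes could not be called, and Rb1 and Ccnd2 rest on few reads.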
